A study of Cricetiscus sungorus with 41 samples.

Results

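The haemoglobin genes are described here by the counts under 10 human gene symbols, HBA1, HBA2, HBM, HBQ1 and HBZ for the alpha-like chains and HBB, HBD, HBE1, HBG1 and HBG2 for the beta-like chains. They were chosen by symbol, not by their values, and make up 10 of the 20220 symbols in the count table. Of the 10, 8 had a count in at least 1 library and 6 had a count in all 41. These few symbols held 88.6% of all counts of the series.

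Haemoglobin is the oxygen carrier of the red blood cell, a tetramer of alpha-like and beta-like globin chains that each hold a haem group. Each chain family comes from a gene cluster whose members are used in turn, the embryonic genes in the early embryo and the adult genes thereafter. Circulating red cells of mammals have no nucleus, and the RNA that the youngest of them, the reticulocytes, still carry is mostly globin RNA.

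Blood of 41 wild type Djungarian hamsters, 1 animal per library, were sequenced as total RNA. Hypothermic animals (HT), which were in or had gone through a bout of spontaneous daily torpor, were sampled at zeitgeber time ZT01 (torpor entry, 5 animals, 3 female and 2 male), ZT04 (mid torpor, 5 animals, 3 female and 2 male), ZT07 (arousal, 4 animals, 3 female and 1 male) and ZT16 (after torpor, 4 females). Normothermic animals (NT), which stayed warm on the sampling day, were 6 at ZT01 (2 female and 4 male), 4 at ZT04 (all male), 4 at ZT07 (3 female and 1 male) and 4 at ZT16 (all male), and 5 never-torpor controls, with neither sex nor time in the labels, never used torpor in their lives. HT and NT animals shared the acclimation to short photoperiod, all had been seen to use torpor, and they were killed by carbon dioxide inhalation at an age of 32 ± 4 weeks.

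Total counts ran from 50153600 to 71662267 per library, so the 95% Wilson interval of a library's haemoglobin share was at most 0.0116 percentage points on each side, which covers counting error only. The counts left for all other symbols ran from 3291472 to 14562786. At ZT07 the Y-linked gene UTY went against the labelled sex in HT replicate 1 (male, 8 counts) and HT replicate 2 (female, 52 counts), against 15 to 71 in 17 further males and 0 to 8 in 17 further females. The labels were used as given, and results at ZT07 are also given without both animals where they turn on them. In bulk blood, fewer cells of a type and less RNA per cell cannot be told apart.

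Nearly all haemoglobin counts stood under 2 symbols. HBD, the minor adult beta-like chain in humans, took 48.8% of all counts and 55.1% of the haemoglobin counts. HBA2, an adult alpha chain, took 39.7% of all counts and 44.8% of the haemoglobin counts. Counts were assigned to human symbols by the best protein match of each assembled contig, so the hamster's own adult beta chain can stand under HBD, and which hamster gene each symbol holds was not analysed here. HBB, the major adult beta chain in humans, took 0.0371% of all counts, from 180 to 782 counts per 1000000 (CPM) in the 41 libraries. HBB held between 0.0376% and 0.155% of the counts under HBB and HBD together.

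The other members were far below these. HBQ1, the theta chain of the alpha cluster, had 450 to 1511 counts per library (8.07 to 23.9 CPM). HBE1, the epsilon chain, which is embryonic in humans and mice, had 23 to 583 counts (0.407 to 8.74 CPM), a 21.5-fold range, or 13.8-fold without NT ZT01 replicate 3, the lowest library. That range was wider than the 4.36-fold range of HBB and the 2.96-fold range of HBQ1, while HBA2 spanned 1.34-fold and HBD 36.8% to 51.6% of all counts.

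The gamma symbols, fetal chains in humans whose mouse relative is embryonic, were near the limit of detection. HBG2 had 4 to 41 counts per library and HBG1 0 to 8, with no count in 7 libraries. Whether these few counts are mismatched reads of the abundant globins was not tested. HBZ, the embryonic zeta chain, had 41 counts in all, in 4 libraries: 17 in HT ZT01 replicate 1, 12 in HT ZT07 replicate 1, 8 in HT ZT16 replicate 1 and 4 in never-torpor control replicate 4. HBA1 and HBM had no count in any library, where 3 counts stand for 0.0419 to 0.0598 CPM depending on the library. As contigs were named by best protein match, a symbol without counts does not show that a hamster gene is silent. A contig close to both HBA1 and HBA2 can stand under HBA2, so these 2 symbols were not told apart. Among the member values from 1 to 49, 47.6% of 82 were even, whereas 67.4% of the 172959 such values over all symbols were even.

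After the haemoglobin symbols the largest part of the counts went to ALAS2. This gene, the first enzyme of haem synthesis in red cells, had 1.26% of them. The next were the ubiquitin ligase MKRN1 (0.351%), R3HDM4 (0.284%), the red cell enzyme BPGM (0.252%) and the ferritin heavy chain FTH1 (0.218%), followed by PABPC1, BNIP3L, EPB41 and NCOA4.

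The share of counts under the 10 symbols lay between 73.7% and 93.8%. It was close to 90% in most HT and NT animals, and the HT and NT groups overlapped at every time. At ZT01 it was 91.7%, 90.2%, 88.2%, 90.7% and 89.0% in HT animals, against 90.6%, 89.2%, 89.8%, 93.0%, 89.7% and 89.3% in NT animals. At ZT04 it was 90.6%, 90.6%, 89.0%, 91.1% and 89.1% in HT animals, against 90.9%, 93.8%, 88.6% and 86.3% in NT animals. At these times HT animals lay within the range of NT animals or just under it, and the widest group was NT at ZT04.

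At ZT07 the share was 87.8%, 86.2%, 87.8% and 88.8% in HT animals, against 88.8%, 85.7%, 88.3% and 89.1% in NT animals. At ZT16 it was 87.4%, 86.4%, 87.3% and 88.8% in HT animals, against 90.5%, 89.9%, 89.6% and 88.0% in NT animals. At ZT16, 3 of the 4 HT animals lay below all 4 NT animals.

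No HT minus NT difference in the share passed a 2-sided exact permutation test adjusted over the 4 times by Benjamini-Hochberg. The difference was -0.314 percentage points at ZT01 (90.0% ± 1.41 in HT, SD, n = 5, and 90.3% ± 1.45 in NT, n = 6, exact p = 0.736), 0.170 at ZT04 (90.1% ± 0.971, n = 5, and 89.9% ± 3.19, n = 4, exact p = 0.905) and -0.320 at ZT07 (87.7% ± 1.07 and 88.0% ± 1.56, n = 4 each, exact p = 0.686). At ZT16 it was -1.99 percentage points (87.5% ± 0.987 in HT and 89.5% ± 1.05 in NT, n = 4 each, exact p = 0.0571, adjusted p = 0.229), where the smallest p that 4 against 4 can give is 0.0286. All HT animals at ZT16 are labelled female and all NT animals male, so sex and torpor cannot be told apart there. By an exact permutation test of the difference itself, none of the 6 pairs of times differed in the HT minus NT value (smallest exact p = 0.204, adjusted p = 0.440).

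**Figure D1:**
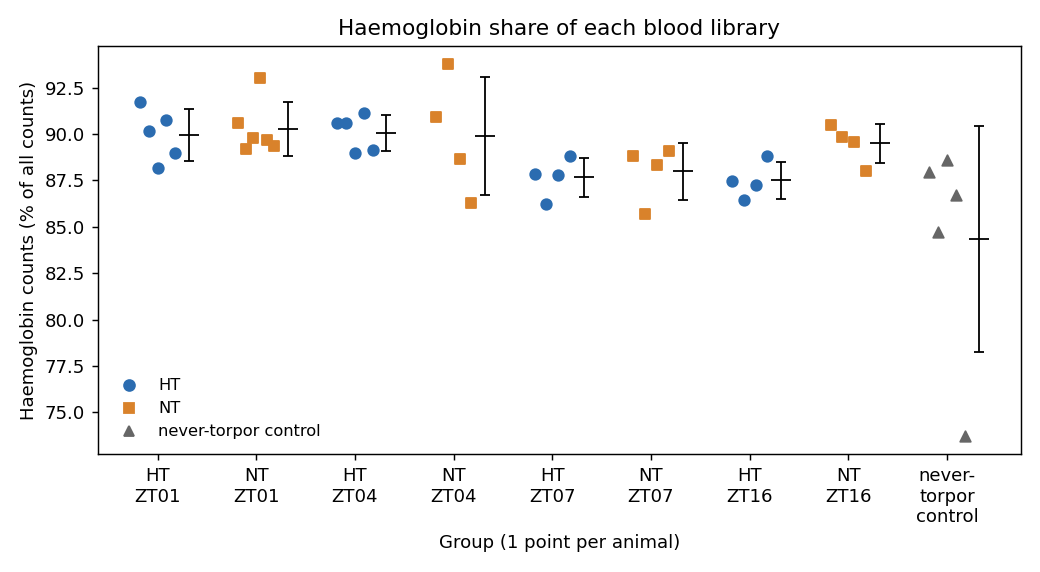
Haemoglobin counts as percent of all counts (y axis), 1 point per animal in each group (x axis), with the group mean and SD as a bar beside the points. HT and NT animals overlap at each time, the ZT07 groups and HT at ZT16 have the lowest HT and NT means, and never-torpor control replicate 5 stands alone at 73.7%.

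Between times, the share had its lowest HT means at ZT07 and ZT16, without passing the adjusted test. Within HT animals it averaged 87.7% at ZT07 and 87.5% at ZT16, against 90.1% at ZT04, and neither late group overlapped with ZT04 (differences of -2.41 percentage points, exact p = 0.0159, and -2.57, exact p = 0.00794). Within NT animals it averaged 88.0% at ZT07, against 90.3% at ZT01, again with no overlap (-2.28, exact p = 0.00952). None of the 12 pairs of times within HT or NT passed after adjustment (adjusted p of 0.0571 for the pairs HT ZT16 and ZT04 and NT ZT07 and ZT01, and 0.0635 for HT ZT07 and ZT04). In the order of group means NT ZT01, HT ZT04, HT ZT01, NT ZT04 and NT ZT16 lay between 90.3% and 89.5%, NT ZT07, HT ZT07 and HT ZT16 between 88.0% and 87.5%, and the never-torpor controls last, and neighbours in this order differed by less than the larger of their SDs.

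Pooled over the 4 times, the share was higher in torpor-using animals than in never-torpor controls, which carry no sex or time label. The controls had 87.9%, 84.7%, 88.6%, 86.7% and 73.7%, so 4 of them lay within or near the range of the other groups and replicate 5 far below. HT animals exceeded controls by 4.58 percentage points (88.9% ± 1.62, n = 18, and 84.4% ± 6.11, n = 5, SD, 2-sided exact permutation p = 0.00547) and NT animals exceeded them by 5.16 (89.5% ± 1.95, n = 18, exact p = 0.00276), each with an adjusted p of 0.00547 over the 2 comparisons, which share the controls. Without control replicate 5 the differences were 1.93 and 2.51 percentage points and both still passed (adjusted exact p = 0.0463). By single time, the difference did not pass with HT animals of ZT07 or ZT16 alone, or with NT animals of ZT04, ZT07 or ZT16 alone.

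That control also differed in other measures. It had 13021 other symbols with a count, the most of the 41 libraries, and its 28 leukocyte markers summed to 10191 per 1000000 non-haemoglobin counts, where the other 40 libraries reached at most 8949. Over the groups, the summed leukocyte markers ran from 4747 to 8355 in HT, 3977 to 7933 in NT and 6845 to 10191 in controls, with all 28 counted, and the 23 erythroid markers from 114866 to 219949 in HT, 144423 to 234378 in NT and 71449 to 186367 in controls, with RHD at 0. On the same scale the 8 heart muscle markers summed to 137 in control replicate 5, within the range of 8.31 to 236 of the other libraries, with MYL7 and NPPA at 0. Their sum in CPM was 36.0 in that control, the highest of the 41 libraries, against at most 19.6 in HT and 13.2 in NT animals. In CPM the erythroid markers ran from 15758 to 22171 in HT, 14647 to 23470 in NT and 18642 to 21208 in controls. The leukocyte markers in CPM ran from 446 to 1029, 249 to 1087 and 826 to 2676 in the same order. The part of these cells in the difference was not tested.

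Across the 41 libraries the share ran opposite to the number of other symbols with a count (Pearson r = -0.82, Spearman rho = -0.85), which is given as a description, since at like totals a higher share leaves fewer counts in which other symbols can be seen. It ran with the summed erythroid markers (r = 0.89, rho = 0.78, permutation p = 1e-05 for each, adjusted p of 1.33e-05 and 2e-05) and against the summed leukocyte markers (r = -0.66, rho = -0.60, permutation p = 1e-05 and 9e-05, adjusted p of 1.33e-05 and 0.00012), and 1e-05 is the smallest p that 100000 permutations can give. Markers were taken on a log2 scale per 1000000 non-haemoglobin counts. These counts also enter the share, so the marker relations are a description too. In CPM the erythroid sum was 14647 in NT ZT04 replicate 2, the lowest of the 41 libraries, and 18759 in control replicate 5, the median. The leukocyte sum in CPM was 249 and 2676 in these 2 libraries, the lowest and the highest. Without the 2 libraries farthest from the median share, NT ZT04 replicate 2 and control replicate 5, r was -0.84, 0.79 and -0.61. Within HT and NT animals alone, r was -0.86 and -0.88 for the other symbols, and 0.84 and 0.76 for the erythroid markers (rho of 0.77 and 0.71). For the leukocyte markers r was -0.64 in HT and -0.63 in NT animals, and rho was -0.63 in HT (permutation p = 0.00562) and -0.40 in NT animals (permutation p = 0.101), so that by rank the relation did not hold within NT. Of the 4 relations computed, the log2 beta-like over alpha-like ratio was the exception (r = 0.26, rho = -0.03, permutation p = 0.0732 and 0.833).

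**Figure D2:**
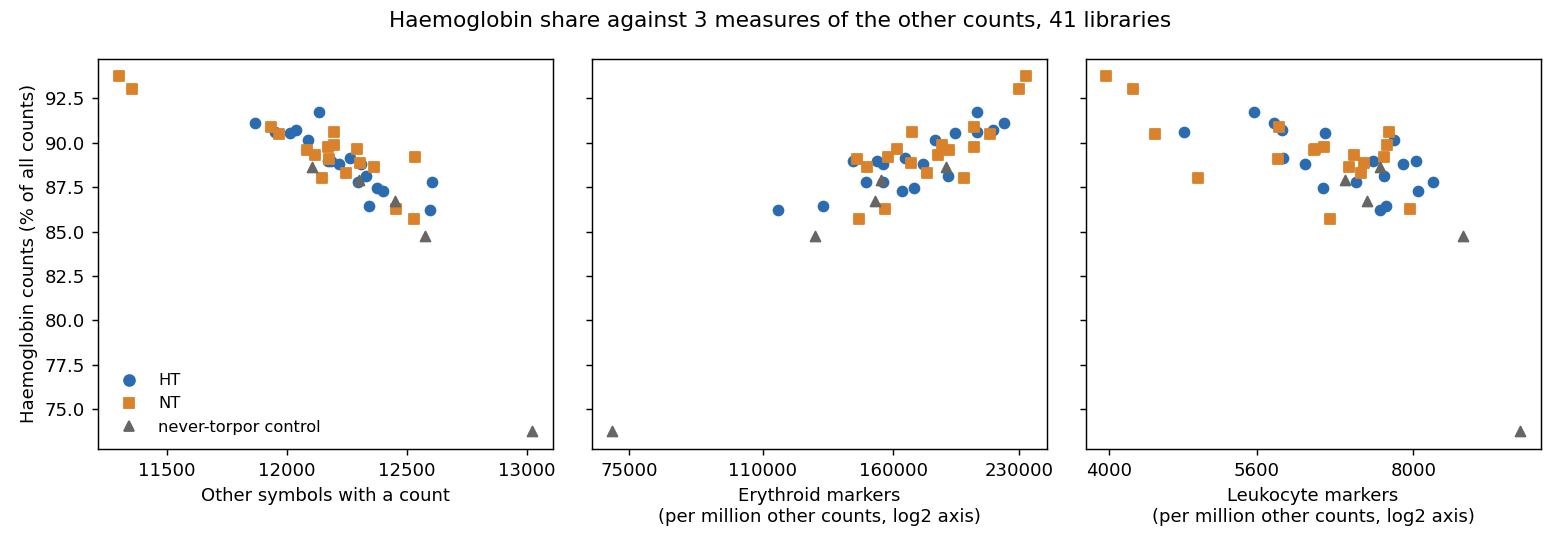
Haemoglobin share (y axis, percent of all counts) against the number of other symbols with a count, the summed erythroid markers and the summed leukocyte markers (x axes, markers per 1000000 non-haemoglobin counts on a log2 axis), 1 point per library. The share falls with the other symbols (r = -0.82) and the leukocyte markers (r = -0.66) and climbs with the erythroid markers (r = 0.89), and never-torpor control replicate 5 lies at the low end of each panel.

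The ratio of beta-like to alpha-like counts lay between 0.843 and 1.42 in the 41 libraries. Red cells need both chains in equal number, but counts per symbol also depend on transcript length and contig matching, so the ratio is read here only between libraries. The log2 beta-like over alpha-like ratio averaged 0.36 ± 0.04 in HT and 0.32 ± 0.06 in NT animals at ZT01, 0.30 ± 0.11 and 0.25 ± 0.07 at ZT04, 0.35 ± 0.07 and 0.15 ± 0.27 at ZT07, and 0.36 ± 0.11 and 0.30 ± 0.04 at ZT16 (SD). HT animals had the higher mean at each time, by 0.04 to 0.21, and no difference passed the exact test (raw exact p of 0.143 to 0.486, adjusted p of 0.857 to 0.914 over 24 ratio tests).

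Of the 41 libraries, 39 had more HBD than HBA2 counts. The exceptions were NT ZT07 replicate 4, with 48.3% of all counts under HBA2 and 40.7% under HBD (log2 ratio -0.25), and never-torpor control replicate 5, with 36.9% and 36.8% (log2 ratio near 0). The haemoglobin share of NT ZT07 replicate 4 was 89.1%, the highest of its group, so its sum did not stand out. Without that animal the HT minus NT difference in the log2 ratio at ZT07 was 0.08, the lowest of the values obtained when 1 animal was left out at that time. The controls averaged a log2 ratio of 0.27 ± 0.16, and HT and NT animals 0.34 ± 0.08 and 0.26 ± 0.14 (exact p = 0.212 and 0.887).

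**Figure D3:**
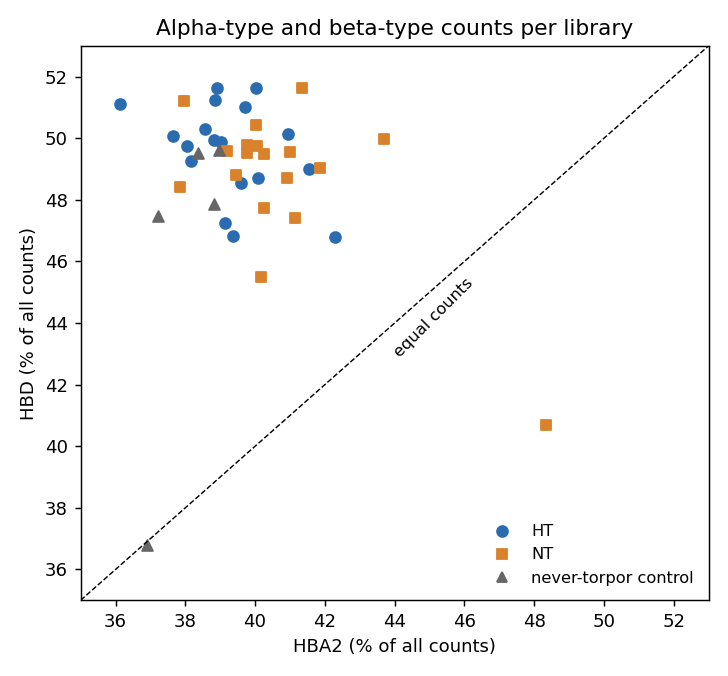
Counts under HBD (y axis) against counts under HBA2 (x axis), each as percent of all counts, 1 point per library, with a dashed line where both are equal. All but 2 libraries lie above the line, and NT ZT07 replicate 4 (48.3% HBA2, 40.7% HBD) and never-torpor control replicate 5 stand apart.

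HBE1 was the member that differed most between HT and NT animals. At ZT01 it had 1.93, 4.57, 2.14, 1.61 and 3.64 CPM in HT animals, against 3.99, 2.35, 0.407, 4.87, 3.43 and 5.09 CPM in NT animals. At ZT04 it had 4.46, 2.85, 0.817, 2.09 and 3.19 CPM in HT animals, against 5.24, 5.64, 5.91 and 6.10 CPM in NT animals. The groups overlapped at ZT01, and at ZT04 all 5 HT animals lay below all 4 NT animals.

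At ZT07 HBE1 had 0.635, 1.35, 2.27 and 1.99 CPM in HT animals, against 4.60, 5.75, 2.18 and 2.81 CPM in NT animals. At ZT16 it had 1.23, 2.65, 8.28 and 1.22 CPM in HT animals, against 8.67, 3.35, 5.39 and 8.74 CPM in NT animals. The lowest NT animal lay just inside the HT range at ZT07, and at ZT16 HT replicate 3 stood among the NT animals. The never-torpor controls had 5.79, 5.32, 4.96, 8.56 and 2.04 CPM. By mean the order was NT ZT16 (6.54 ± 2.64 CPM), NT ZT04 (5.72 ± 0.375), controls (5.33 ± 2.32), NT ZT07 (3.83 ± 1.64), NT ZT01 (3.35 ± 1.75), HT ZT16 (3.35 ± 3.35), HT ZT01 (2.78 ± 1.27), HT ZT04 (2.68 ± 1.35) and HT ZT07 (1.56 ± 0.727), and each neighbouring pair differed by less than the larger of its SDs.

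**Figure D4:**
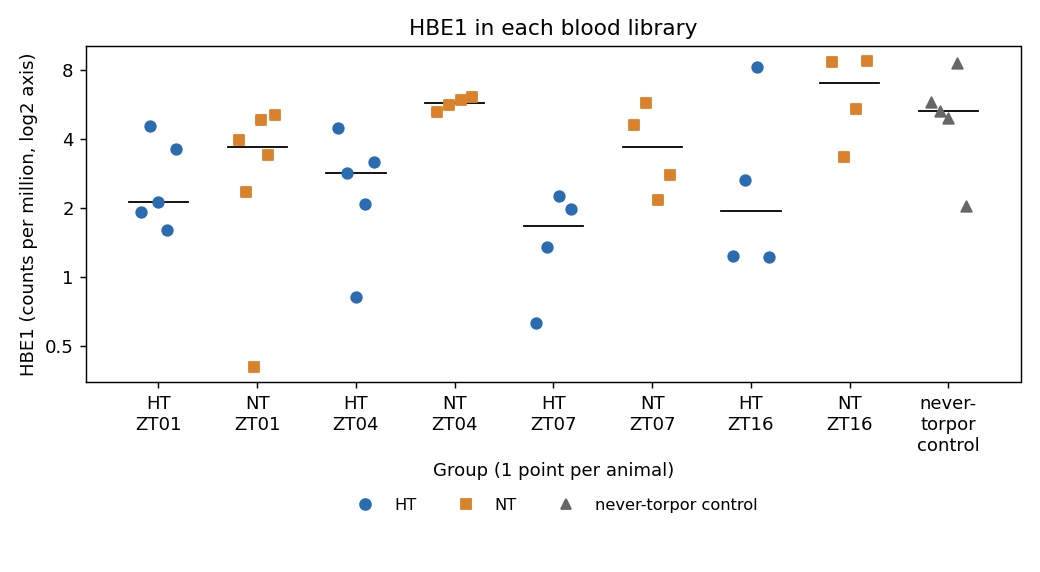
HBE1 in counts per 1000000 on a log2 axis (y axis), 1 point per animal in each group (x axis), with the group median as a line. HT animals lie lower than NT animals of the same time at ZT04 without overlap, and at ZT16 HT replicate 3 (8.28 CPM) stands among the NT animals.

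In the test over all symbols (edgeR quasi-likelihood, TMM scaling, so changes are relative to most other symbols), HBE1 was lower in HT animals at ZT07, by -1.39 ± 0.37 on the log2 scale (SE, edgeR adjusted p = 0.0391). It was the only member of the 6 tested that passed there, where 10.4% of all symbols tested passed. At the other times HBE1 had log2 fold changes of -0.51 ± 0.50 at ZT01, -1.23 ± 0.48 at ZT04 and -1.59 ± 0.56 at ZT16 (edgeR adjusted p of 0.805, 0.237 and 0.555). All NT animals at ZT04 were labelled male, and with sex as a term the ZT04 value was -0.72 (edgeR adjusted p = 0.857). At ZT16 all HT animals were labelled female and all NT animals male, so no such fit was possible there. No member passed in edgeR at these times, where 0%, 0.447% and 0.0187% of symbols tested did, and an unadjusted p under 0.05 was given to none at ZT01, to HBE1 at ZT04 and to HBA2, HBB, HBE1 and HBQ1 at ZT16 (7.69%, 15.2% and 7.18% of all symbols at these times). At ZT01 DESeq2 passed 9 symbols of the table where edgeR passed none and gave 808 an unadjusted p under 0.05.

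The HBE1 call at ZT07 was not firm. It was lost without both animals whose UTY counts go against the label (-0.85, edgeR adjusted p = 0.202) and with sex as a term (-1.43, edgeR adjusted p = 0.0551). It held in 3 of the 8 fits that left out 1 animal (-1.67 to -1.13, edgeR adjusted p of 0.0384 to 0.109) and was lost without HT replicate 1 or 2 or NT replicate 1, 2 or 4. It also held when libraries were scaled by total counts (-1.30, edgeR adjusted p = 0.0421) and in DESeq2 (adjusted p = 0.00583, where 13.1% of symbols passed). At ZT07 the summed leukocyte markers were 6247 to 8355 per 1000000 non-haemoglobin counts in HT and 5875 to 7145 in NT animals, and their part in the difference was not tested.

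After the values had been seen, the 4 times were joined in 1 fit of 36 animals that holds time as a term. In it HBE1 was 2.17-fold lower in HT animals (log2 fold change -1.11 ± 0.29, SE, edgeR adjusted p = 0.0108), where 11.2% of symbols tested passed. It passed in each of the 36 fits without 1 animal (edgeR adjusted p of 0.00341 to 0.0256), without both UTY-mismatched animals (-1.01, edgeR adjusted p = 0.0357), with sex as a term (-1.09, edgeR adjusted p = 0.0291), scaled by total counts (-0.86, edgeR adjusted p = 0.0441) and in DESeq2 (adjusted p = 0.00504). Male animals did not differ from females in HBE1 beyond the error (male minus female 0.05 ± 0.36, edgeR adjusted p = 0.991), in a fit where 0.0523% of symbols tested passed. The HT minus NT difference in HBE1 at ZT04 differed from that at ZT01, ZT07 and ZT16 by -0.72, 0.18 and 0.38 (edgeR adjusted p of 0.903, 0.989 and 0.923), in edgeR interaction tests where 0%, 0% and 0.331% of symbols passed (862 and 760 of them had an unadjusted p under 0.05 at ZT01 and ZT07). None of the 18 interaction tests of the 6 members passed, and none had an unadjusted p under 0.05 (lowest 0.362).

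As a ratio within the beta-like chains, log2 HBE1 over HBB and HBD was compared with the exact test. HT minus NT was -0.05 at ZT01, -1.31 at ZT04 with no overlap (raw exact p = 0.0159), -1.43 at ZT07 (exact p = 0.0571) and -1.33 at ZT16 (exact p = 0.114). None passed after adjustment over the 24 ratio tests (smallest adjusted p = 0.381).

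The other 5 members tested, HBA2, HBB, HBD, HBG2 and HBQ1, passed at no time. Their log2 fold changes lay between -0.89 and 0.02, and 19 of the 20 values were below 0 with TMM scaling (edgeR adjusted p of 0.394 to 0.991). The values farthest below 0 were at ZT16, with HBG2 at -0.89 ± 0.49, HBQ1 at -0.83 ± 0.26, HBB at -0.81 ± 0.26, HBA2 at -0.65 ± 0.29 and HBD at -0.60 ± 0.30 (SE). DESeq2 passed HBA2, HBB, HBD and HBQ1 there as lower in HT animals (adjusted p of 0.00274 to 0.0370), among 1214 symbols that it gave an adjusted p, of which 8.32% passed, 100 as lower in HT animals and 1 as higher. By the labels, sex and torpor cannot be told apart at ZT16 in any of these values. With scaling by total counts 15 of the 20 values were below 0. It put HBA2 and HBD at ZT16 at -0.06 and -0.01, where the median of all symbols tested was 0.59 on that scale and 0.01 with TMM.

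**Figure D5:**
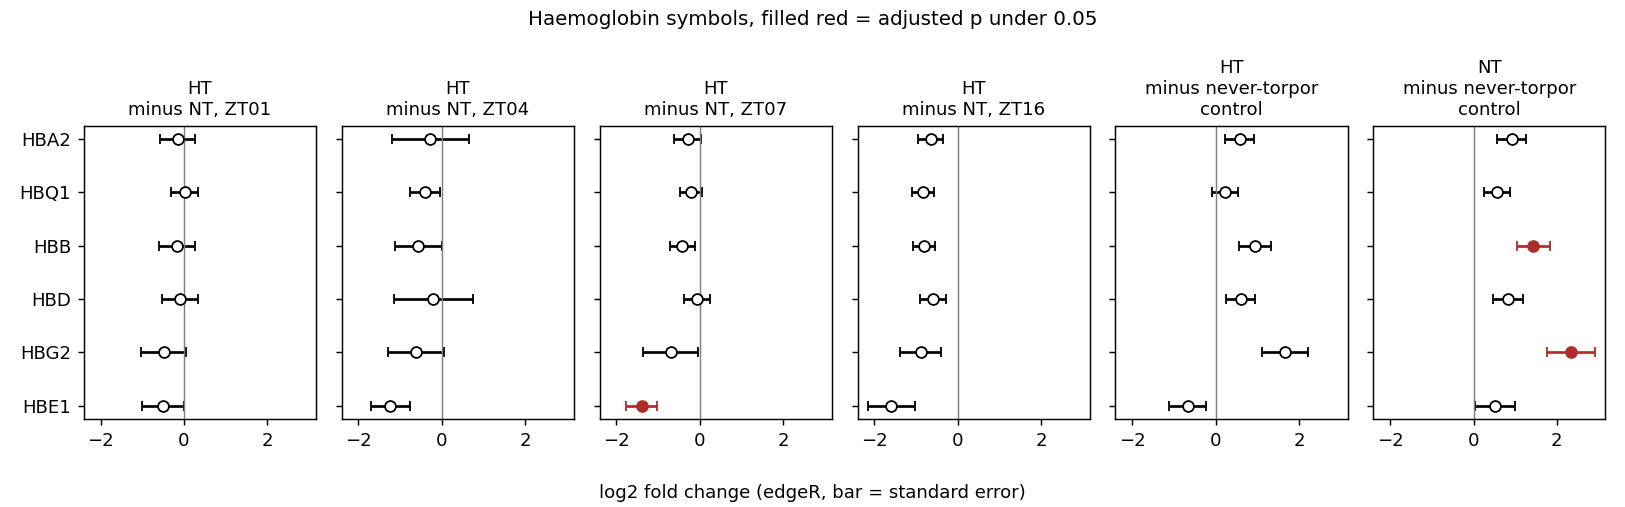
Log2 fold changes of the 6 tested haemoglobin symbols (rows) in 6 comparisons (panels), from edgeR, with the standard error as a bar and filled red symbols for an adjusted p under 0.05. HBE1 lies lowest at ZT04, ZT07 and ZT16, and HBG2 lies highest against never-torpor controls.

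Against never-torpor controls, 2 members were higher in NT animals and none passed edgeR in HT animals, where HBB and HBG2 had an unadjusted p under 0.05, as had 21.1% of all symbols, and DESeq2 passed HBG2 and 9.07% of all symbols. HBG2 had 6 to 41 counts in NT animals (0.357 ± 0.155 CPM, SD, n = 18) and 6, 17, 5, 8 and 4 counts in controls (0.131 ± 0.0806 CPM, n = 5). With TMM scaling it was 5.07-fold higher in NT animals (log2 2.34 ± 0.57, SE, edgeR adjusted p = 0.0115), and by total counts the log2 value was 1.43. These values rest on few counts, whose origin was not tested. HBB averaged 397 ± 169 CPM in NT animals and 285 ± 53.9 CPM in controls (log2 1.44 ± 0.40, edgeR adjusted p = 0.0466). Of all symbols tested 2.15% passed in NT minus controls and 7.45% in HT minus controls.

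In HT animals HBG2 was at 0.291 ± 0.169 CPM (log2 1.66 ± 0.56 over controls, edgeR adjusted p = 0.0590, DESeq2 adjusted p = 0.0194) and HBB at 386 ± 171 CPM (0.95 ± 0.39, edgeR adjusted p = 0.136). HT and NT animals did not differ past the test in HBG2 over the 4 times (HT minus NT -0.64 ± 0.31, edgeR adjusted p = 0.174). Scaling by total counts moved the median of all symbols to -0.98 in NT minus controls and -0.78 in HT minus controls. On that scale HBG2 was at 1.43 and 1.11 and HBB at 0.47 and 0.38, HBB passed in neither (edgeR adjusted p of 0.0708 in NT and 0.146 in HT), and HBE1 in NT animals changed sign (0.52 ± 0.47 with TMM, -0.19 by total counts). Of the 5 fits without 1 control, the HBB call in NT animals held only in that without replicate 3 (edgeR adjusted p of 0.0440 to 0.221 over the 5), and the HBG2 call was lost only in that without replicate 5 (edgeR adjusted p = 0.0816). HBE1 in HT animals had -0.66 ± 0.44 against controls with TMM (edgeR adjusted p = 0.415). Scaled by total counts it passed as lower (-1.09, edgeR adjusted p = 0.00652), where 7304 of 11636 symbols tested passed, 7129 of them as lower.

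Of the 12 ratio tests against controls, 2 passed. The gamma ratio, log2 HBG1 and HBG2 over HBB and HBD, was higher in NT animals by 1.19 (exact p = 0.00113, adjusted p = 0.0136). The epsilon ratio, log2 HBE1 over HBB and HBD, was lower in HT animals by -1.28 (exact p = 0.00776, adjusted p = 0.0465). The gamma ratio in HT animals and the epsilon ratio in NT animals did not pass (0.75, exact p = 0.137, and -0.35, exact p = 0.462). Without control replicate 1 neither passed (adjusted exact p of 0.0558 for the gamma ratio and 0.114 for the epsilon ratio), and the epsilon ratio passed only without replicate 5 among the 5 such tests. Ratios do not depend on the scaling of the libraries, and the gamma ratio rests on 5 to 49 counts per library in HT and NT animals and 4 to 18 in controls.

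The members varied largely apart from each other. Across the 41 libraries the Spearman correlation of CPM was 0.50 between HBB and HBG2, 0.38 between HBE1 and HBQ1, 0.33 between HBA2 and HBB, and -0.16 between HBA2 and HBD. HBE1 had 0.10 with HBA2 and -0.09 with HBD. These are given as a description, since values of a library share its total and HBA2 and HBD make up most of it.

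Genes that act with haemoglobin were compared between HT and NT animals in 4 lists. Of 15 haem synthesis genes, all tested, none passed in edgeR at any time (0, 3, 3 and 4 had an unadjusted p under 0.05 in order of time, as had 7.69%, 15.2%, 27.6% and 7.18% of all symbols tested), and the median log2 fold change lay between -0.25 and -0.19. ALAS2 was at -0.01, 0.03, -0.14 and -0.62 at ZT01, ZT04, ZT07 and ZT16. The lowest p of this list at ZT04 was for ALAD, which joins the precursors into the first ring (0.773 ± 0.195 CPM in HT and 1.60 ± 0.859 in NT, log2 -0.90 ± 0.29, edgeR adjusted p = 0.156).

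Of 16 globin chaperone and regulator genes, 15 were tested and none passed in edgeR (1, 2, 3 and 1 had an unadjusted p under 0.05), with BCL11A, a repressor of fetal globin in humans, at 0 counts. The alpha chain chaperone AHSP had log2 fold changes of -0.45, -0.87, -0.37 and -0.53, and the red cell transcription factor KLF1 -0.05, -0.26, -0.88 and -0.48, in order of time. The lowest p of this list at ZT04 was for LDB1, part of the complex that loops the globin enhancer to its genes in mice (0.67 ± 0.27, edgeR adjusted p = 0.261).

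Of 10 genes of haemoglobin and haem clearance, 7 were tested, and FLVCR1, a haem exporter, was higher in HT animals at ZT07 (6.07 ± 1.80 CPM in HT and 2.75 ± 0.850 in NT, log2 0.96 ± 0.22, edgeR adjusted p = 0.0226), at a time when 10.4% of all symbols tested passed. Without both UTY-mismatched animals FLVCR1 did not pass (0.83 ± 0.28, edgeR adjusted p = 0.182). The plasma scavengers HP and HPX had no counts. BLVRA, biliverdin reductase, had the lowest p of this list at ZT04 (-0.70 ± 0.43, edgeR adjusted p = 0.479). The median of the list was 0.01, -0.23, -0.34 and -0.43 in order of time, where that of all symbols tested was -0.04 to 0.01.

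The globins outside the haemoglobin clusters were scarce. MB, myoglobin, had 65 counts in the whole series, CYGB 8 and NGB 6. ADGB, androglobin, had 665 counts and was tested at 3 of the 4 times without passing (log2 0.01 ± 0.61 at ZT04, edgeR adjusted p = 0.998).

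Other red cell genes were set beside these, in a list that shares ALAS2, AHSP, GATA1 and KLF1 with those above. Of 22 erythroid markers tested, 2 were lower in HT animals at ZT07, namely SLC4A1, the anion exchanger of the red cell membrane (26.8 ± 5.24 CPM in HT and 51.4 ± 13.1 in NT, log2 -1.06 ± 0.21, edgeR adjusted p = 0.0135), and KEL (log2 -0.91 ± 0.26, edgeR adjusted p = 0.0450). This share of the list is near the 10.4% of all symbols that passed there, and neither gene passed without both UTY-mismatched animals (-0.96 and -0.71, edgeR adjusted p of 0.0992 and 0.209) or, for KEL, when scaled by total counts (-0.78, edgeR adjusted p = 0.0966). None passed in edgeR at ZT01, ZT04 and ZT16, where 1, 7 and 13 had an unadjusted p under 0.05, beside 7.69%, 15.2% and 7.18% of all symbols. For the ZT16 values sex and torpor cannot be told apart. Without both UTY-mismatched animals 37 symbols of the whole table (0.333%) passed at ZT07, against 1120 with them. Of 28 leukocyte markers, KLRD1, a natural killer cell receptor, was lower in HT animals at ZT04 (-1.32 ± 0.25, edgeR adjusted p = 0.0454), where 0.447% of all symbols passed. All NT animals at ZT04 were labelled male. With sex as a term 1 symbol of the whole table passed there, and the value of KLRD1 in that fit is not reported here. KLRD1 and NCR1 were lower at ZT07 (-1.48 and -1.07, edgeR adjusted p of 0.0198 and 0.0450), again beside 10.4% of all symbols. At ZT07 neither passed without both UTY-mismatched animals (edgeR adjusted p of 0.169 and 0.299), and scaled by total counts NCR1 did not (edgeR adjusted p = 0.111). The median of the erythroid list in log2 fold change was -0.32, -0.64, -0.49 and -0.72 in order of time, on the same TMM scale as the haemoglobin symbols.

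ALAS2 was also the gene whose level followed the haemoglobin share most closely. Among 7603 symbols with at least 10 counts per 1000000 non-haemoglobin counts, the highest Spearman correlations over 41 libraries with the ratio of haemoglobin to other counts were 0.82 for ALAS2, 0.81 for MARCH2, 0.80 for R3HDM4, 0.74 for FTH1 and 0.74 for LARP1B. Further high values were those of COX8A (0.71), OAZ1 (0.69), BNIP3L (0.69), a receptor for the removal of mitochondria from reticulocytes, and ISCA1 (0.68). The lowest were IL16 (-0.84), a lymphocyte cytokine, ST6GAL1 (-0.83), STK26 (-0.82), CDK7 (-0.81) and NUMA1 (-0.81). The points share the count of non-haemoglobin reads as their denominator, so the values are a description.

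Of 32 erythroid and haem synthesis genes ranked in this way, 25 had a correlation above 0 and 7 below, with a median of 0.16, and 4 reached 0.5, namely ALAS2, BNIP3L, EPB41 (0.62) and BPGM (0.54). ABCB10 (0.49) and KLF1 (0.38) came next. SLC4A1 (0.22), FECH (0.17) and ANK1 (0.03) were near the middle, and CLPX (-0.56), SLC25A38 (-0.45) and ALAS1 (-0.42) were the lowest.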

How the data were processed

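Blood of 41 Djungarian hamsters were profiled by paired-end sequencing of total RNA. The authors assembled the reads de novo, named each contig by its best match among human proteins, aligned the reads with HISAT2 and deposited raw counts per human symbol. The deposited counts were used as they stand, with no gene lengths, so that no level was compared between genes per length. Which contigs stand under a symbol was not analysed here.

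Haemoglobin members, gene lists and tests were chosen with earlier results of these data known. Groups were taken from the sample labels, 1 animal per library. The share is the sum of the 10 symbols over all counts, with a 95% Wilson interval, and CPM is counts per 1000000 of all counts. Ratios are log2 with a pseudocount of 0.5 and were tested where the median count of both sides was at least 10 (6 of 10 ratios). Shares and ratios were compared with 2-sided exact permutation tests, relations with 100000 permutations, and p-values were adjusted by Benjamini-Hochberg with a threshold of 0.05. Across all symbols, edgeR 4.0.16 (quasi-likelihood, TMM, limma 3.58.1, R 4.3.3) was fitted to the libraries of each time, or to all 41 for the controls, with a minimum count of 10 and a minimum total of 15, adjusting over all symbols tested. The alternatives were DESeq2 1.42.0, other scalings, no filter, sex as a term, a replicate block, a shared fit, other pseudocounts and each animal left out. Beside the 10 members, the text names list genes that passed at any time or had the lowest p of their list at ZT04, the 10 other symbols with the most counts, and the 10 highest and 5 lowest correlations with the haemoglobin share. Some genes that these rules name are not reported here. The fits of list genes at ZT07 without both UTY-mismatched animals or by total counts were added, and some red cell and leukocyte genes named, after their values had been seen. Same-numbered HT and NT animals had r of -0.25 to 0.34. Those that correlated best with their own number were 2 of 5, 3 of 4, 2 of 4 and 1 of 4 in order of time. The numbers were not taken as pairs. The edgeR and permutation code was tested on simulated data. Shares, tables and figures were made with Python 3.11.15, numpy 2.4.6, scipy 1.17.1, pandas 2.3.3 and matplotlib 3.10.9.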

Additional observations from a re-analysis of the deposited data

Results flagged for a closer look

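Within-group outliers were sought by Dixon's test in 6 quantities and 9 groups, 54 groups of values in all, where chance flags about 1 in 20. Of these, 4 had an animal far from the others. Haemoglobin took 93.0% of the counts in NT ZT01 replicate 4, where the other 5 animals of the group had 89.2% to 90.6%. It took 73.7% in never-torpor control replicate 5, where the other 4 controls had 84.7% to 88.6%. The same control had a log2 beta-like over alpha-like ratio of -0.0026, the lowest of the controls. HBB was at 423.6 CPM in HT ZT16 replicate 2, the highest of its group.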

How the results depend on the processing

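Over all results and alternatives, 532 values kept their direction and their side of the threshold, 26 reversed, 25 no longer passed, 6 newly passed and 21 moved. None of the reversed HT minus NT differences in share passed in either form. At ZT01 the difference was 1.53 percentage points in males alone and -2.31 in females alone, 0.00434 for HBB alone and 0.451 for HBD alone (chosen after seeing the data), and -0.754 to 0.241 without 1 animal. At ZT04 it was -0.690 for HBA1 and HBA2 alone, -0.00322 for HBB alone, -0.0255 as log2 of haemoglobin over other counts, and -1.03 to 1.45 without 1 animal. At ZT07 it was 0.321 without both UTY-mismatched animals, 3.01 for HBD alone and -3.32 for HBA1 and HBA2 alone, and -1.08 to 0.159 without 1 animal. Against controls the share difference did not pass with HT animals of ZT07 (3.31) or ZT16 (3.15) alone, or with NT animals of ZT04 (5.55), ZT07 (3.63) or ZT16 (5.14) alone. The log2 HBE1 over HBB and HBD ratio at ZT01 was 1.23 in females alone, -1.07 in males alone and -0.58 to 0.14 without 1 animal. Members passing at ZT07 were 0 with sex as a term, without both UTY-mismatched animals and with all 41 libraries in the fit, and 0 to 1 without 1 animal. DESeq2 passed 4 members at ZT16, 1 in HT minus controls and 4 in NT minus controls, total scaling passed 2 in HT minus controls, and 0 to 2 passed in NT minus controls without 1 control. Ratios passing against controls were 0 to 2 without 1 control. HBE1 in NT minus controls was -0.19 by total counts. Replicate numbers were not taken as pairs (every animal correlated best with its own number at no time, and 3 of 4 did at ZT04). With a replicate block 0 members passed at ZT07 (HBE1 -1.47, edgeR adjusted p = 0.0641), HBE1 at ZT01 was 0.0138 and its ratio there 0.14. Over all symbols, the number passing at ZT04 was 47 in edgeR, 423 in DESeq2, 5 by total counts, 9 with the replicate block, 1 with sex and 675 with all 41 libraries. At ZT07 it was 1120 in edgeR, 310 by total counts and 37 without both UTY-mismatched animals, at ZT16 2, 101 in DESeq2 and 3289 by total counts, and over the 4 times 1246, 160 by total counts and 681 without both UTY-mismatched animals. Against controls, total scaling passed 7304 symbols in HT and 9296 in NT. Low counts limit HBG1, HBG2 and HBZ.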
